A study of Mus musculus with 10 samples.

Results

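The cytosolic ribosomal protein genes were described in macrophages of the mouse small intestine. Members were all rows whose symbol is Rpl, Rps or Rplp followed by a number, with or without a closing letter or digit, together with Rpsa, while rows named as pseudogenes and the Rps6k kinases were left out. This gave 85 of 17279 listed genes, of which 84 were among the 16949 genes tested, 48 of the large and 36 of the small subunit. Rpl39l, a paralog best known from testis, was too low to be tested. By annotation Rps12l1, Rps3a2 and Rps3a3 are processed pseudogenes and Rps4l is a transcribed processed pseudogene, although their names pass the rule. The series holds 10 libraries of C57BL6/J mice, 5 taken 24 h after sham surgery and 5 taken 24 h after permanent middle cerebral artery occlusion (pMCAO), an experimental stroke in which an artery of the brain is closed for good. Lamina propria macrophages were sorted as CX3CR1-GFP+ cells from the peeled mucosa of the whole small intestine, so the sort depended on a reporter that other CX3CR1-expressing cells can also carry. RNA was depleted of ribosomal RNA by cleavage. Replicate 1 of each group carries the word pool in its library name, and age and sex are not in the labels.

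Ribosomal proteins assemble with ribosomal RNA in the nucleolus into the small subunit, which reads the mRNA, and the large subunit, which joins amino acids. Cells make them in near-equal amounts, and control them largely through translation of their mRNAs, which begin with a tract of pyrimidines that is read when mTORC1 is active and is held back by LARP1. In mammals most ribosomal protein genes have left many intronless copies elsewhere in the genome, most of them processed pseudogenes, and the sequence of some copies is the same as that of the parent gene.

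These copies matter for what the table holds. Of the 85 members, 74 had at least 1 copy among the other listed genes, and there were 262 such copies. A copy was a row named as a pseudogene of the member, even where it shares no stretch of 100 bases with it. Annotated pseudogenes that share such a stretch and genes sharing at least 50% of such stretches were also taken. Rpl22 and Rpl32 share no such stretch with another annotated gene, so their copies count by name alone, and not every copy is near-identical. For 43 members the copies held more counts than the member itself. Gm10073 and Gm10076, which share fewer such stretches with Rplp1 and Rpl41, are not in these numbers. The 3 coding starts given next belong to members with a copy whose coding sequence does not differ in a single base, so each is printed once for both (first 90 coding bases, GENCODE M21 on GRCm38, all in lower case because no base differs). Rps16 spans chr7:28350652-28353155 (+) and Rps16-ps2 chr5:129128077-129128517, with 438 identical coding bases. Rpl31 spans chr1:39367842-39371911 (+) and Rpl31-ps8 chr15:90764279-90764656, with 375. Rps27 spans chr3:90212522-90213651 (−) and the retrogene Rps27rt chr9:114982366-114982739, with 252.
Rps16 and Rps16-ps2: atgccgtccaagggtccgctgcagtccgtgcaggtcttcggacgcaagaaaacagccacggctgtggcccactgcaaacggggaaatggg
Rpl31 and Rpl31-ps8: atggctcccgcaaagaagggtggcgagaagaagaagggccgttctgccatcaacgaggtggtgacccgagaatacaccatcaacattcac
Rps27 and Rps27rt: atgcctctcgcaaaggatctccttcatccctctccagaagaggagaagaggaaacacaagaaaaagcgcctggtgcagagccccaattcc

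Over all 10 libraries Rps16 received 5079 counts against 228612 for Rps16-ps2, and Rpl31 received 4602 against 221532 for Rpl31-ps8. Rps27 received 9649 counts against 372308 for Rps27rt, and Rps29 received 1867 against 409355 for its copy Gm14303. For each of these pairs the intronless copy therefore held nearly all of the counts of the pair. Further members with over 20 counts in 1 copy for each of their own were Rpl5 with Gm15500 (ratio 49.6), Rpl24 with Gm9385 (46.5), Rpl23a with Rpl23a-ps3 (45), Rpl28 with Rpl28-ps1 (37.5), Rpl11 with Gm10288 (37.4), Rpl38 with Rpl38-ps2 (28.4), Rpl12 with Gm10275 (24.3), Rps27a with Gm8430 (23.6), Rpl10a with Rpl10a-ps1 (22.8) and Rps6 with Rps6-ps4 (20.1). How reads that match several places were placed is not given in the sources used here, and reads that lie within bases identical in a member and its copy cannot be told apart. Over all members and copies together the split differed little between libraries. For every 100 member counts, the copies held 108, 105, 102, 105 and 102 counts in sham replicates 1 to 5 and 100.5, 105, 109, 106 and 105 in pMCAO replicates 1 to 5. Within a single pair the values could lie apart, with a log2 difference (pMCAO minus sham) of −0.79 in Rpl12 and −0.28 in its copy Gm10275 (SE 0.24), a contrast that was not tested. Rpl12 is among the members with the smallest p, and that choice alone makes a smaller difference in the copy likely.

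The members together took 2.52, 2.56, 2.34, 1.44 and 2.83% of all listed counts in sham replicates 1 to 5 and 1.53, 2.61, 1.85, 1.36 and 2.29% in pMCAO replicates 1 to 5. The means were 2.34% ± 0.534 and 1.93% ± 0.521 (SD, n = 5 each), a difference of −0.41 percentage points, which is smaller than the SD within either group, and the groups overlap over nearly their whole range. Sham replicate 4 and pMCAO replicates 1 and 4 were low, and pMCAO replicate 2 was as high as the upper sham libraries. The large subunit genes went from 1.18% ± 0.253 to 0.949% ± 0.255 and the small subunit genes from 1.16% ± 0.281 to 0.981% ± 0.266. Counted with their copies, the members took 5.24, 5.24, 4.71, 2.94 and 5.72% in sham and 3.07, 5.36, 3.86, 2.81 and 4.7% in pMCAO libraries. The difference in the member share was −0.63 points without sham replicate 4, −0.26 without pMCAO replicate 4 and −0.26 without both pooled libraries. Without the 2 libraries that hold Xist counts (sham replicate 5 and pMCAO replicate 4) it was −0.14 points. In bulk RNA a lower share cannot be told apart from fewer cells of a type or from less RNA of these genes in each cell.

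**Figure D1:**
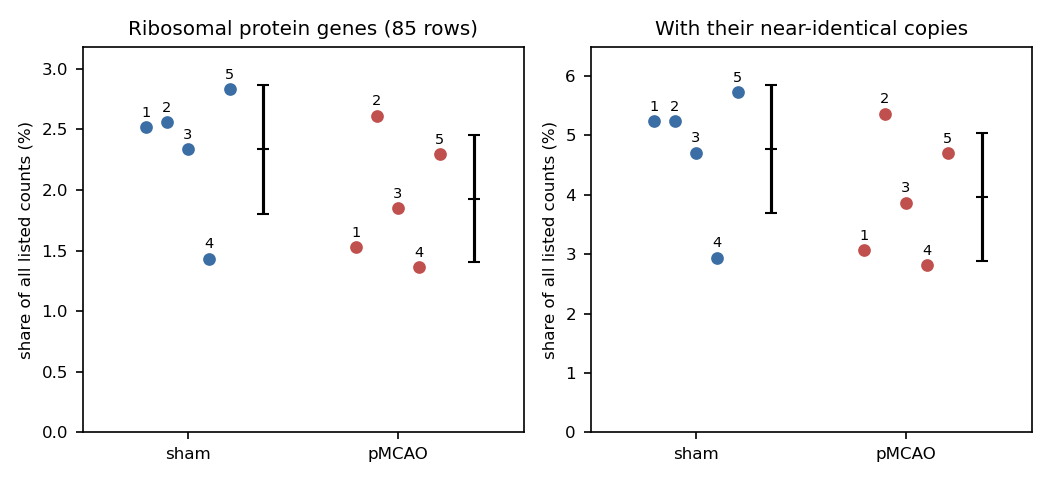
Share of all listed counts (%) in the 85 ribosomal protein genes (left) and in these genes with their copies as defined in the text (right, titled near-identical). Each library is one point with its replicate number, and the mean with SD (n = 5) is a bar. Sham replicate 4 (1.44% on the left) lies among the lowest pMCAO libraries, and the groups overlap in both panels.

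Total counts were 18894151 to 60665972 in sham and 6430643 to 28672285 in pMCAO libraries, so a given CPM rested on fewer counts in the shallower pMCAO libraries. Transcripts of the mitochondrial genome took 16.4, 10.2, 10.9, 25.3 and 5.36% of counts in sham replicates 1 to 5 and 12.5, 7.23, 24.9, 13.8 and 9.78% in pMCAO replicates 1 to 5, and immunoglobulin genes took 0.525% to 14.1% and 0.782% to 16.7%. Macrophage markers (10 of 10 measured) summed to 7962 to 17420.0 CPM in sham and 8476 to 15940.0 CPM in pMCAO libraries. Much of this sum was Lyz2, at 5173 to 9826 CPM in sham and 4575 to 7716 CPM in pMCAO libraries. The 7 B and plasma cell markers summed to 3321 to 76090.0 CPM and 3546 to 86110.0 CPM, with Ms4a1 and Cd79a at 0 in some libraries. The ranges were 422 to 1004 CPM and 123 to 1264 CPM for 8 epithelial markers, 203 to 411 CPM and 195 to 278 CPM for 6 T cell markers, and 44.7 to 98.9 CPM and 21.1 to 81.0 CPM for 5 stromal and endothelial markers. Much of the T cell sum was Cd4, at 113 to 179 CPM in sham and 93.2 to 178.5 CPM in pMCAO libraries. Cd3e ranged from 0.818 to 46.9 CPM and from 10.3 to 25.6 CPM. The log2 difference was below 0 in 6 of 6 T cell, 4 of 10 macrophage and 6 of 8 epithelial markers. It was below 0 in 5 of 7 B and plasma cell and 3 of 5 stromal and endothelial markers, beside 50.6% of all genes tested. Of 5 neutrophil markers 2 were analysed, at a sum of 0.388 to 10.4 CPM and 0.202 to 12.2 CPM, each at 0 in some libraries. The part of depth and of these other transcripts in the ribosomal protein values was not tested. The labels call each library a biological replicate. No label states that the libraries came from separate animals, so p-values measure the spread between these samples.

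Levels per kilobase of transcript differed widely among members that are needed in near-equal amounts. On this scale the mean over 10 libraries was highest in Rpl32 (2490.4 CPM per kb), Rpl41, the shortest of the ribosomal proteins (1614), Rplp1, an acidic protein of the stalk (1597) and Rpl22 (1371). It was lowest among the protein-coding members tested in Rpl23a, which lies at the exit of the peptide tunnel (5.39), Rpl5, which carries the 5S ribosomal RNA (6.98), Rpl28 (8.34), Rpl27 (9.64) and Rpl24 (9.91). This order depends on the 1 transcript taken for length. Rpl5 had a mean of 14.3 CPM over a transcript of 2045 bases, of which 891 are coding. Rpl28, Rpl27 and Rpl24 had means of 6.44, 5.92 and 6.71 CPM over shorter transcripts. Without correction for length, the 3 members with the highest mean CPM were Rpl32 (1288), Rps24 (1273) and Rpl4 (1269.6), and the 5 lowest were Rpl39l (0.522), Rps12l1 (1.87), Rpl23a (3.02), Rps4l (3.89) and Rpl27 (5.92). Rpl32 lay at 1808, 1908, 1465, 1024 and 1290.3 CPM in the sham libraries and at 681, 1740.4, 1232, 701 and 1025 CPM in the pMCAO libraries. Its lowest values were in pMCAO replicates 1 and 4 and in sham replicate 4 and pMCAO replicate 5, and the groups overlap.

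The level followed how much of a member's sequence is its own. The 100-base stretches of each member's transcript were searched in all other annotated transcripts, 100 bases being the length of the reads. Noncoding parts of the transcript enter this share, which is 66.1% in Rps16, where 438 of 1109 bases are coding. In the 13 members with over 90% of stretches found nowhere else, the median level was 619 CPM per kb. It was 257 CPM per kb in the 37 members with over 50% to 90%, 63.7 in the 31 with over 10% to 50%, and 96.2 in the 3 with at most 10%. Across the 84 tested members, which share libraries and are not independent, Spearman's rho was 0.51. Among the 80 tested protein-coding members, the lower and upper quartiles were 40.0 and 460.0 CPM per kb, a ratio of 11.5. After the counts of each member were summed with those of its copies, the quartiles of the same 80 were 379 and 957 CPM per kb, a ratio of 2.52, and rho with the own share of sequence over 81 tested families was 0.23. The summing was chosen after the data were seen. Rps29 went from 17.6 to 3978 CPM per kb, Rps27 from 96.2 to 3701, Rpl31 from 30.8 to 1543 and Rpl23a from 5.39 to 357. A few genes stayed low when summed. These were Rpl7l1, a paralog that acts in the nucleolus (19.9), Rpl15 (45.5), Rps23, a protein of the decoding centre (46.5), and Rpl27 (94.5).

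**Figure D2:**
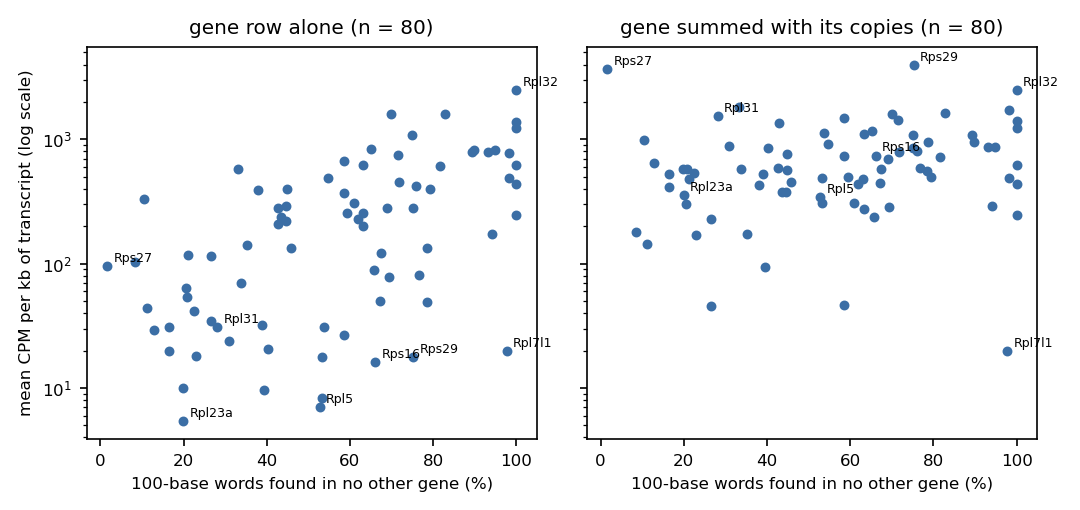
Mean level over 10 libraries (CPM per kb of transcript, log scale) against the share of 100-base stretches of the transcript found in no other gene (%), for 80 protein-coding members alone (left) and summed with their copies (right). On the left the quartiles are 40.0 and 460.0 CPM per kb and on the right 379 and 957, while Rpl7l1 is low in both.

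After pMCAO most members were measured slightly lower than after sham surgery, and none passed the test across all genes. By the quasi-likelihood test of edgeR with Benjamini-Hochberg adjustment, 0 of 84 members had an FDR of at most 0.05, as did 0 of all 16949 genes (0%), where 799 genes had an unadjusted p under 0.05. The smallest FDR among members was 0.922. DESeq2 called 3 genes over the whole table and 0 members, and limma-voom called none of either. The log2 difference, pMCAO minus sham, was below 0 in 71 of 84 members (84.5%), beside 50.6% of all genes tested. Its median was −0.24 over the members and −0.0059 over all genes, with a range over the members from −0.80 in Rps4l to 0.37 in Rpl7l1. In the large subunit 39 of 48 were below 0 (median −0.28), and in the small subunit 32 of 36 (median −0.23). At an unadjusted p under 0.05, 6 members were lower (7.14%), beside 2.45% of all genes, and 0 were higher, beside 2.26%. All 6 belong to the large subunit. In 1 member every pMCAO library lay below every sham library (all genes 0.537%), and in 0 members every pMCAO library lay above (all genes 0.448%). The members share libraries and shift together, so their number is not a number of independent observations.

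**Figure D3:**
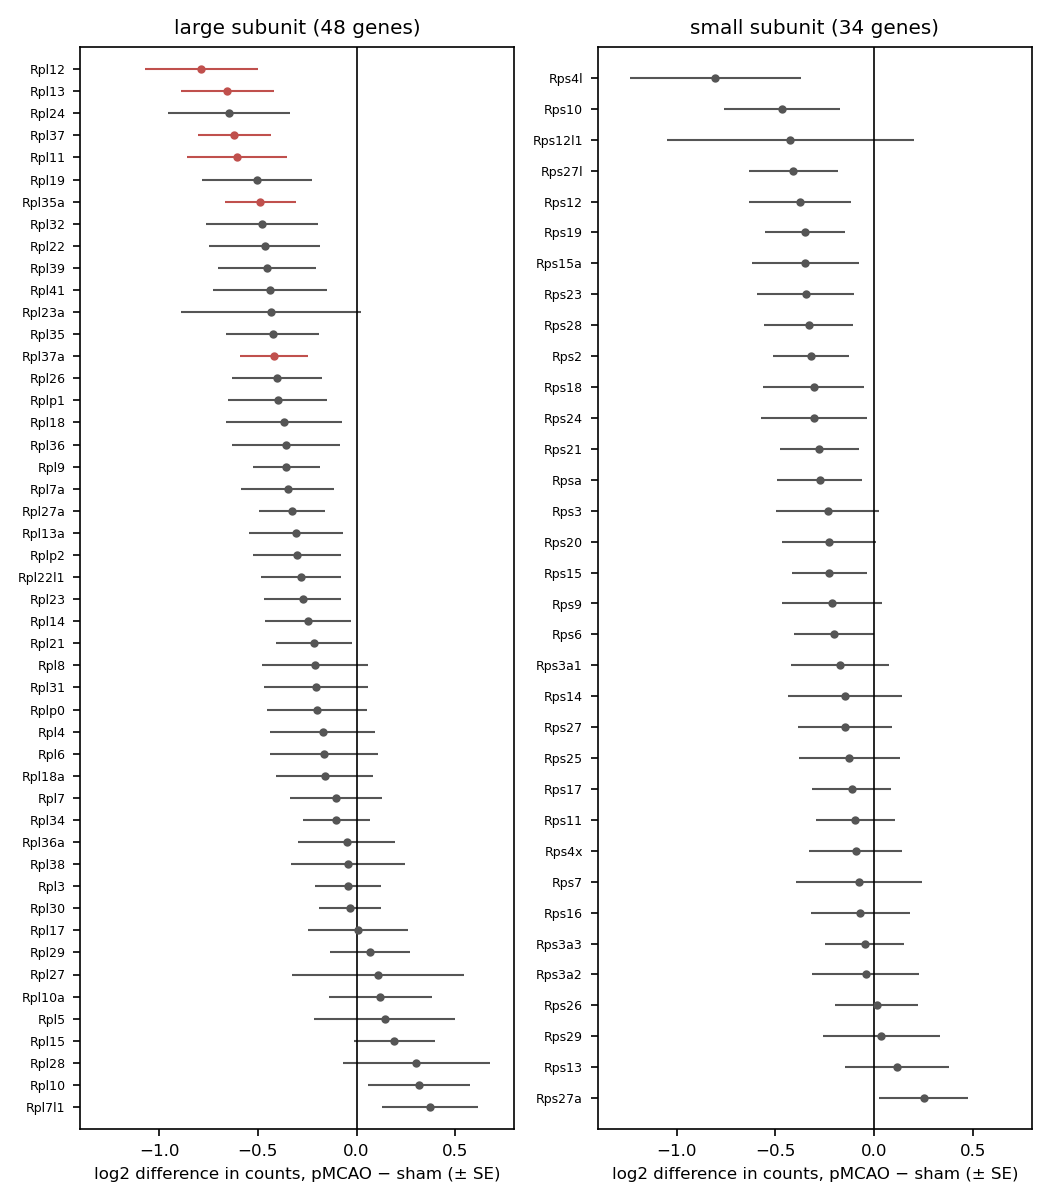
Log2 difference in counts (pMCAO minus sham, edgeR) with its SE for 48 large and 34 small subunit genes, ordered by size, with the 6 genes at an unadjusted p under 0.05 in red. Points run from −0.80 (Rps4l) to 0.37 (Rpl7l1), and 69 of the 82 genes drawn lie left of 0.

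The median depended on which libraries were included. It was −0.40 without pMCAO replicate 2, −0.16 without pMCAO replicate 4, −0.12 without both pooled libraries and −0.16 without both libraries with Xist counts. The number below 0 was 73, 63, 63 and 62 of 84 in these 4 fits. The number lower at an unadjusted p under 0.05 was 23 without pMCAO replicate 2 (27.4%, beside 4.19% of all genes in that fit) and 3 without both pooled libraries (3.57%, beside 1.37%), so the share over all genes moved as well.

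The 6 members lower at an unadjusted p under 0.05 were Rpl37, Rpl13, Rpl12, Rpl35a, Rpl37a and Rpl11. Rpl37, a zinc-binding protein at chr15:5116645-5119140 (+), had the smallest p. Rpl37 was measured at 60.0, 47.3, 44.3, 53.3 and 44.4 CPM in sham replicates 1 to 5 and at 24.9, 42.4, 34.4, 25.5 and 34.8 CPM in pMCAO replicates 1 to 5. All 5 pMCAO libraries lay below all 5 sham libraries, although pMCAO replicate 2 came close to sham replicates 3 and 5. The log2 difference was −0.62 (SE 0.19, unadjusted p = 0.00571, FDR 0.922 by edgeR). Rpl13 was measured at 112, 119, 113, 123 and 90.4 CPM in sham replicates 1 to 5 and at 38.1, 99.6, 88.4, 54.3 and 73.7 CPM in pMCAO replicates 1 to 5. Rpl13, at chr8:123102350-123105244 (+), was lowest in pMCAO replicates 1 and 4, and only sham replicate 5 lay within the pMCAO range. Its log2 difference was −0.65 (SE 0.24, unadjusted p = 0.0164).

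Rpl12 was measured at 30.7, 34.8, 25.5, 17.5 and 30.1 CPM in sham replicates 1 to 5 and at 21.1, 15.1, 7.98, 13.6 and 22.5 CPM in pMCAO replicates 1 to 5. Rpl12, a protein at the base of the stalk at chr2:32961559-32965345 (+), was lowest in pMCAO replicate 3 and in sham replicate 4, the sham library that overlaps the pMCAO group. The log2 difference was −0.79 (SE 0.29, unadjusted p = 0.0177). Rpl35a was measured at 51.7, 51.2, 54.1, 62.5 and 34 CPM in sham replicates 1 to 5 and at 29.5, 41.6, 35, 37 and 37.6 CPM in pMCAO replicates 1 to 5. Rpl35a, altered in some families with Diamond-Blackfan anaemia and located at chr16:33056453-33060189 (+), overlapped between groups through sham replicate 5. The log2 difference was −0.49 (SE 0.18, unadjusted p = 0.0195).

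Rpl37a was measured at 90.8, 72.8, 94.4, 98 and 70.2 CPM in sham replicates 1 to 5 and at 47.2, 67, 81.2, 58.7 and 64.9 CPM in pMCAO replicates 1 to 5. Rpl37a, at chr1:72711290-72713813 (+), overlapped between groups through pMCAO replicate 3 and sham replicates 2 and 5, with a log2 difference of −0.42 (SE 0.17, unadjusted p = 0.0334). Rpl11 was measured at 22.9, 23.8, 22.3, 14 and 21.1 CPM in sham replicates 1 to 5 and at 13.5, 21.4, 10.2, 10.3 and 13 CPM in pMCAO replicates 1 to 5. Rpl11, which with Rpl5 and 5S ribosomal RNA binds Mdm2 when ribosome assembly fails, lies at chr4:136028265-136053428 (−). Sham replicate 4 lay among the pMCAO values and pMCAO replicate 2 among the sham values. The log2 difference was −0.61 (SE 0.25, unadjusted p = 0.0336). Next by p came Rpl9 (−0.35, unadjusted p = 0.0569) and Rpl24 (−0.65, unadjusted p = 0.0583), also of the large subunit. When any 1 library was left out, the log2 differences of the 6 genes moved by no more than 1.5 times. The 6 were picked by their p in these same libraries, which favours small movement, so this is no check of them. Among the 52 genes taken by the naming rule, several of which lay near 0, 39 moved by more or turned in sign.

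**Figure D4:**
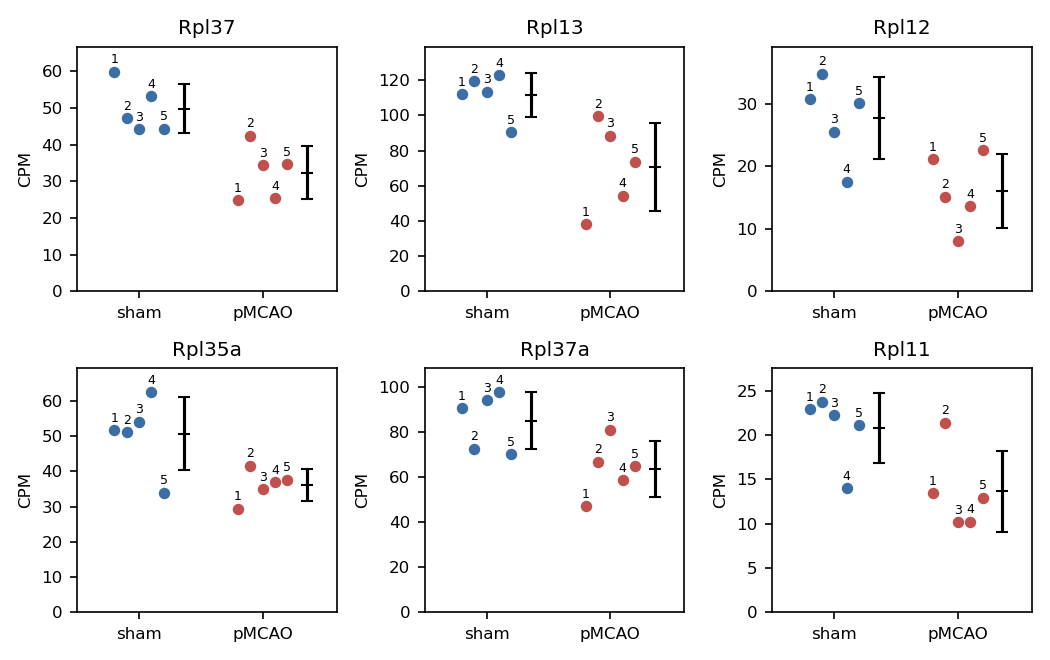
CPM per library of the 6 members with an unadjusted p under 0.05, with replicate numbers beside the points and the mean with SD (n = 5) as a bar. The groups are apart in Rpl37 alone, where the highest pMCAO library (42.4 CPM) is just below the lowest sham library (44.3 CPM).

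Each of these 6 genes shares sequence with copies that hold most of the counts, from 62.3% of the summed counts in Rpl35a and 76.5% in Rpl13 to 96.2% in Rpl12 and 97.6% in Rpl11. Summed with its copies, Rpl37 had a log2 difference of −0.36 (SE 0.24, unadjusted p = 0.159). For Rpl13 it was −0.55 (SE 0.27, unadjusted p = 0.0681), the smallest p of the 6. Values for Rpl12, Rpl35a, Rpl37a and Rpl11 were −0.30, −0.32, −0.31 and −0.45, all closer to 0 than for the member alone. Over the 81 families tested, 76 had a difference below 0, beside 50.4% of the 16684 rows of that fit, and the median was −0.25. None of the families had an unadjusted p under 0.05, beside 2.45% of rows that were lower at that limit, and the smallest FDR was 0.926 by edgeR. Lower values were thus seen in 76 of 81 families and 71 of 84 members, and none of the 6 genes kept an unadjusted p under 0.05 when its copies were added. The 6 were picked for the smallest p of the member rows. That choice alone makes values closer to 0 after summing likely, so their change is no test of the copies. Among the 262 copies themselves, 201 were below 0 with a median of −0.20, and 0 had an unadjusted p under 0.05 in either direction.

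Of the 13 members with a difference of 0 or above, the 4 with the smallest p were Rpl7l1, Rpl10, Rps27a and Rpl15. Rpl7l1 was measured at 28.6, 25, 26.2, 11.5 and 22.1 CPM in sham replicates 1 to 5 and at 27.3, 27, 38.3, 24.8 and 29.7 CPM in pMCAO replicates 1 to 5. Sham replicate 4 was far below the other sham libraries, and the groups overlap. The log2 difference was 0.37 (SE 0.24, unadjusted p = 0.149). Rpl10 was measured at 92.9, 52.4, 67.2, 95.7 and 60.2 CPM in sham replicates 1 to 5 and at 139, 50.9, 86.2, 82.9 and 101 CPM in pMCAO replicates 1 to 5. Rpl10, the X-linked protein that joins the large subunit late, was highest in pMCAO replicate 1 and lowest in pMCAO replicate 2, with a difference of 0.32 (SE 0.26, unadjusted p = 0.244). It was 0.12 without pMCAO replicate 1 and 0.47 without pMCAO replicate 2. Rps27a, made as a fusion with ubiquitin, had 0.25 (SE 0.23), and Rpl15 had 0.19 (SE 0.21). Summed with their copies, Rpl10 had 0.23 and Rpl15 0.17, while Rps27a was at −0.09.

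Members of the stalk, which recruits elongation factors, had differences of −0.20 in Rplp0 (SE 0.25), −0.40 in Rplp1 (SE 0.25) and −0.30 in Rplp2 (SE 0.22). Rplp1 lay at 1037, 957, 1011, 869.7 and 658 CPM in sham and at 472, 926, 1001, 452 and 585 CPM in pMCAO libraries. In pMCAO replicates 1, 4 and 5 the values of Rplp1 were below all sham libraries and in replicates 2 and 3 they were among the higher values. Of the other members with a role outside the ribosome, Rpsa, also a laminin receptor, had −0.27 (SE 0.22). Rps3, which takes part in DNA repair and NF-κB signalling, had −0.23 (SE 0.26), and Rpl13a, which in myeloid cells leaves the ribosome to silence inflammatory mRNAs, had −0.30 (SE 0.24). Rps19, the gene most often altered in Diamond-Blackfan anaemia, had −0.35 (SE 0.20), and Rpl41 had −0.44 (SE 0.29). Rps6, the S6 kinase substrate, had −0.20 (SE 0.20), Rps25, used by some viral entry sites, −0.12 (SE 0.26), and Rpl38, needed for patterned translation in the embryo, −0.04 (SE 0.29). Rpl5 had 0.14 (SE 0.36), opposite in sign to its partner Rpl11. Summed with their copies, both were below 0, at −0.07 for Rpl5 and −0.45 for Rpl11. Of these 15 members with a known second role, 12 were below 0 (80%, beside 50.6% of all genes, median −0.23) and Rpl11 alone had an unadjusted p under 0.05 (6.67%, beside 2.45% lower over all genes). Rps6, Rpl38, Rpl5, Rpl11 and Rps27a each held under 5% of the counts of their families.

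Genes named after a core gene, paralogs and the pseudogene Rps4l, were looked at beside their parents. Rpl22l1 was at 156 ± 30.1 CPM in sham and 128 ± 33 CPM in pMCAO libraries (SD, n = 5), with a log2 difference of −0.28 (SE 0.20), and its parent Rpl22 was at 754 ± 161 and 546 ± 236 CPM with −0.47 (SE 0.28). Per kilobase Rpl22 (1371 CPM) exceeded Rpl22l1 (257 CPM). Rps27l, a p53 target in other cells, had −0.41 (SE 0.23) and Rps27 −0.15 (SE 0.24). The retrogene Rps27rt, whose name the rule does not take, was at 1409.7 ± 399.5 and 1073 ± 514 CPM with −0.39 (SE 0.32). Rpl7l1 differed in sign from Rpl7 (−0.10, SE 0.23), a difference that was not tested. Rpl36al was at 183 ± 58.9 and 156 ± 74.1 CPM (−0.23, SE 0.31) and Rpl36a, most of whose counts lay in copies, had −0.05 (SE 0.25). Rps4l had the lowest value of all members (−0.80, SE 0.43, unadjusted p = 0.0876), at 4.96 ± 1.63 and 2.82 ± 1.13 CPM, while its parent Rps4x was at 842 ± 169 and 790 ± 253 CPM (−0.09, SE 0.23). Rpl39l was at 2.23, 0, 0, 0 and 1.27 CPM in sham and 0, 0.902, 0, 0.82 and 0 CPM in pMCAO libraries, at 0 in most of them, while its parent Rpl39 was at 544 ± 109 and 398 ± 143 CPM (−0.45, SE 0.25). Of the 6 such genes tested, 5 were below 0 (83.3%, beside 50.6% of all genes). At an unadjusted p under 0.05, 0 were lower, beside 2.45% of all genes, and 0 were higher, beside 2.26%. Rps27rt and Rpl36al are among these 6 and are not members.

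Members varied together between libraries of the same group. After the group means were taken out, the mean of Pearson's r over all 3486 pairs of members was 0.48 over 10 libraries, and 84.6% of pairs were above 0. The depth and composition of the libraries enter these values as well. No such value was computed for other genes, so whether those vary together to the same extent is not known here. Rows that share sequence, such as Rps3a1, Rps3a2 and Rps3a3, count as separate members. Against the mean of the other members, 32 of 84 had an r above 0.9, among them Rpl13a (0.98), and 6 were below 0, namely Rpl15 (−0.67), Rpl10 (−0.57), Rpl27a (−0.37), Rpl5 (−0.31), Rpl9 (−0.21) and Rps29 (−0.00444). Among sham libraries replicate 4 was lowest for 56 of 84 members and replicate 2 highest for 39. Among pMCAO libraries replicate 4 was lowest for 52 and replicate 2 highest for 55. Of members with a mean of at least 10 CPM, the SD of log2 CPM over all libraries was largest in Rpl12 (0.65), Rps7 (0.59), Rps10 (0.57) and Rpl5 (0.57). Rpl5 was measured at 8.38, 9.12, 8.24, 22.6 and 19.5 CPM in sham replicates 1 to 5 and at 14.4, 12.7, 11.5, 11.9 and 24.3 CPM in pMCAO replicates 1 to 5. Sham replicates 4 and 5 and pMCAO replicate 5 were high, an order unlike that of most members.

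**Figure D5:**
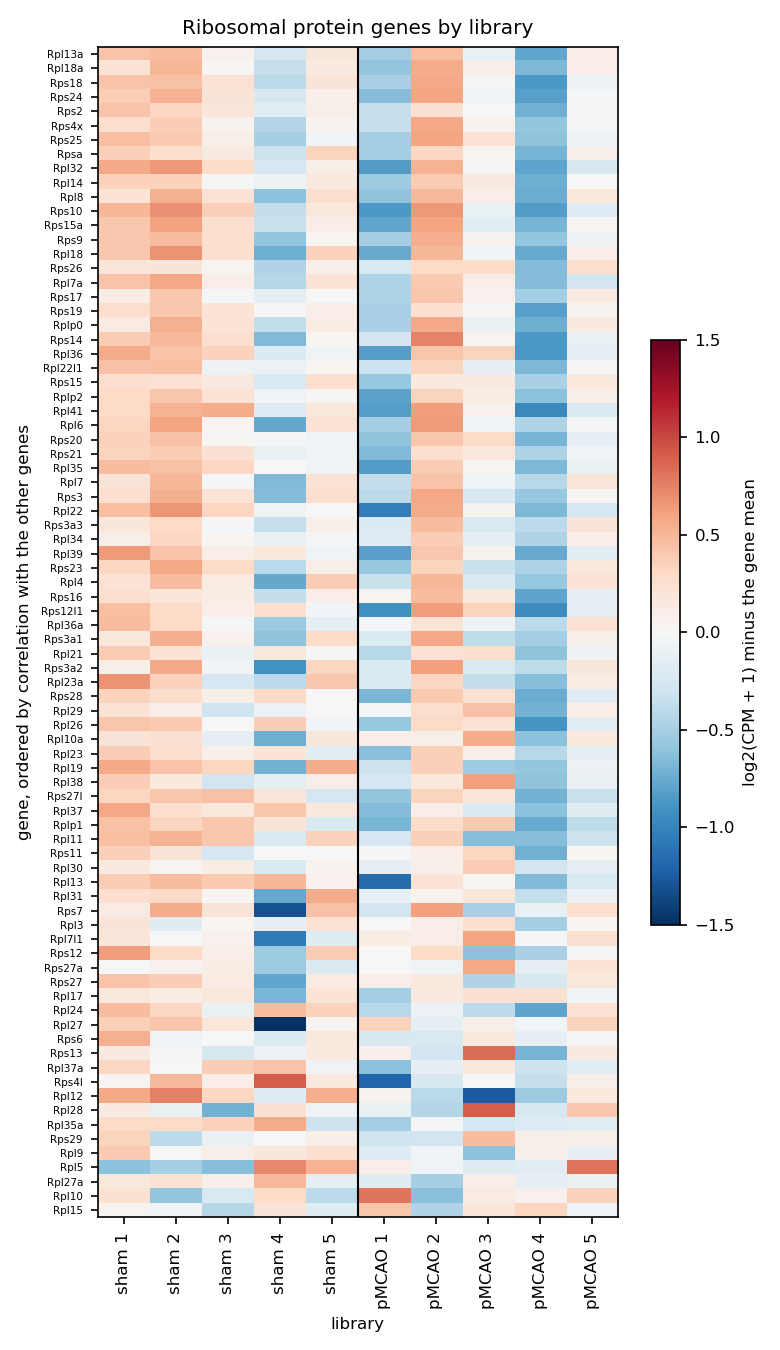
Log2(CPM + 1) of 82 tested members minus each gene's mean over 10 libraries (colour), genes ordered by their correlation with the other members after removal of group means, and libraries in columns with sham left of the line. Values beyond the colour bar are drawn in its end colour. For most genes sham replicate 2 and pMCAO replicate 2 are high and sham replicate 4 and pMCAO replicates 1 and 4 are low, while the genes at the foot do not follow this order.

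Since the members share a mode of control, the letters around their start sites were compared with those of all promoters (RefSeq on GRCm38.p6, 250 bases before to 50 after the start). A promoter was found for 61 of 85 members, at the first listed start where there was more than 1. The share over all promoters counts every listed start, with those of the members among them. Pyrimidine tracts of the kind read through LARP1 were searched on the gene's strand from 10 bases before to 15 after the start. CTTTCC was found in 14.8% of members and 1.04% of all 32851 promoters, CTTCC in 18.0% and 5.41%, TCTTTC in 9.84% and 0.822%, and TTCTTT in 3.28% and 0.858%. These motifs can overlap, and 32.8% of members and 7.50% of all promoters held at least 1. A tract found in this window need not lie at the first base of the mRNA. On both strands of the whole window, CCGGAAG, the core bound by GABP, was found in 41.0% of members and 8.86% of all promoters, and AAGATGGC, bound by YY1, in 8.20% and 2.75%. TATAAA was found in 9.84% and 13.6%, and GGGGCGGGG, bound by Sp1, in 8.20% and 11.4%. Of the 6 members with the smallest p, Rpl37 and Rpl11 held CCGGAAG, and their starts are shown for that reason, from 40 bases before to 20 after the start, with the motif in capitals. The Rpl37 window is chr15:5116573-5116632 on the plus strand and the Rpl11 window chr4:136053374-136053433 on the minus strand. These RefSeq starts are not those of the GENCODE genes given above. The Rpl37 window ends before the GENCODE gene begins at 5116645. The Rpl11 window lies mostly inside the GENCODE gene, which begins at 136053428. The tract search used the RefSeq starts, so a tract at a GENCODE start that lies elsewhere could be missed.
Rpl37: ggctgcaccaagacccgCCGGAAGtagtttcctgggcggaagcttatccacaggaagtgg
Rpl11: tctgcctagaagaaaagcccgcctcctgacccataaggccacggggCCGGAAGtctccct

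Other genes of the same machinery were counted from lists. Of cytosolic ribosome genes whose names the rule does not take, Rack1 was not analysed here, Fau, a fusion of a ubiquitin-like protein with a small subunit protein, had 0.19 (SE 0.26), and Rpl36al is given above. Of 19 tested genes of translation factors and others whose mRNAs also begin with a pyrimidine tract, 15 were below 0 (78.9%, beside 50.6% of all genes) with a median of −0.07, and 0 had an unadjusted p under 0.05. The smallest p belonged to the elongation factor subunit Eef1d (−0.40, SE 0.20, unadjusted p = 0.0717, and −0.25 without pMCAO replicate 1 or −0.20 without both pooled libraries) on the lower side and to Hnrnpa1 (0.21, SE 0.17) on the higher. Of 50 tested genes for ribosomal RNA synthesis, processing and ribosome assembly, 41 were below 0 with a median of −0.20, and 5 were lower at an unadjusted p under 0.05, or 10% beside 2.45% of all genes. These were Nop10, a part of pseudouridylation complexes (−0.49, SE 0.18, unadjusted p = 0.0195), Nop58 of the methylation complexes (−0.45, SE 0.18), Noc2l (−0.39, SE 0.17), Bop1, which matures the large subunit (−0.58, SE 0.25), and Tsr1, which matures the small one (−0.62, SE 0.28). None had an FDR under 0.922 by edgeR. The smallest p on the higher side was that of Wdr12 (0.15, SE 0.19). Of 22 tested genes of mTORC1, LARP1 and translation control, 12 were below 0 (median −0.09) and 0 had an unadjusted p under 0.05, with Eif4g1 at −0.31 (SE 0.25), Tsc2, which restrains mTORC1, at 0.31 (SE 0.18) and Larp1 at −0.16 (SE 0.20). Of 8 genes by which p53 answers free ribosomal proteins, 4 were below 0 and 0 had an unadjusted p under 0.05, with Bax at −0.21 (SE 0.20) and Mdm4 at 0.21 (SE 0.16).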

How the data were processed

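RNA of sorted macrophages was sequenced in 10 libraries. The authors deposited whole-number read counts per gene, with STAR, featureCounts and limma and the builds GRCm38 and mm10 named in the submitters' processing notes and no versions or settings. The authors also deposited CPM values, which equal counts scaled to the listed total within 5e-04, and their own log2 fold change, mean expression, p-value and FDR, which were not used. The paper given with the series does not describe these libraries. Each listed gene has at least 60 counts in all.

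From the counts, genes were kept by filterByExpr, scaled by TMM and fitted over all genes with edgeR 4.0.16 (R 4.3.3), whose quasi-likelihood test set pMCAO against sham without covariates, with Benjamini-Hochberg adjustment and an FDR limit of 0.05. SE is the size of the log2 difference divided by the root of F. CPM values in the text are TMM-scaled, and shares are of all listed counts. Lengths are those of 1 GENCODE M21 transcript per gene. No library repeated another (the smallest chi-square over 11860 genes was 49.0 per degree of freedom). The method was tested on simulated data with known changes, each larger than the difference of any member. That run cannot show whether differences of the size reported here would be found. Gm10073 and Gm10076, which share fewer than 50% of 100-base stretches with Rplp1 and Rpl41, were not counted as copies. Their mean levels were 422 and 761 CPM, beside 797 CPM for Rplp1 and 705 CPM for Rpl41. The numbers of copies and the levels summed with copies leave them out.

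The members, lists and tests were chosen with earlier results of these data known. Named members were the 5 highest and 5 lowest by CPM, the 8 lower and 4 higher with the smallest p, paralogs with their parents, those with a second role, the 4 with the largest SD of log2 CPM and, in each other list, the smallest p in each direction. A few genes and a sequence that these rules take are not reported here. Genes beyond these are named because a count or a level turned on them and were chosen after their values were seen. The alternatives were DESeq2 1.42.0, limma-voom with and without quality weights (limma 3.58.1), other scalings and filters, a replicate block, 1 surrogate variable (sva 3.50.0), leaving out libraries and, added after the data were seen, summing members with copies and a transcript length offset.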

Additional observations from a re-analysis of the deposited data

Results flagged for a closer look

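In 106 groups of 5 libraries, 1 for each named gene and the member share in each condition, the highest or lowest library was looked for that lay far from the others on the log2 CPM scale. Its gap to the nearest library exceeded 0.71 of the group's range in 9, where chance gives about 1 in 20, or 5.3. Of these, 7 were low values in sham replicate 4, for which the gap was 0.777 of the range in Rpl11, 0.840 in Rpl27, 0.724 in Rpl4, 0.716 in Rpl7l1, 0.744 in Rps27, 0.723 in Rps3 and 0.770 in Rps7. That library had the fewest counts of the sham group (18894151) and the largest mitochondrial share of all libraries (25.3%), and their part in these values was not tested. In Rpl24 sham replicate 3 was low (0.727), and in Tsc2, no ribosomal protein gene, sham replicate 1 was low (0.779).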

How the results depend on the processing

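Under each alternative 0 members had an FDR of at most 0.05. The number lower at an unadjusted p under 0.05, 6 as reported, was 39 with limma-voom and sample quality weights (46.4%, beside 6.50% of all genes in that fit), 16 with a replicate block (19.0% beside 4.09%), 3 without both pooled libraries (3.57% beside 1.37%), 3 with the transcript length offset (3.57% beside 2.58%), 0 when members were summed with their copies, and 4 to 23 when single libraries were left out. Over all genes the share as reported was 2.45%. The median log2 difference ranged from −0.45 with quality weights to −0.12 without both pooled libraries, and 0 members were higher at that limit in every setting. Replicate numbers were shared between groups, but deviations of same-numbered libraries correlated between −0.0055 and 0.37, not all above 0.1, so the numbers were not taken as pairs; with the replicate block 72 of 84 members were below 0 (median −0.29). The planned correction for coding length was not run, since a coding length was found for 77.9% of tested genes, under 80%.

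Among single genes, signs turned near 0, with FDRs of 0.857 or more. Rpl36a was at 0.0324 with limma-voom, 0.0392 with 1 surrogate variable, 0.0908 without both pools, 0.0824 with the length offset and −0.18 to 0.0821 without single libraries. Rps7 was at 0.0263 with limma-voom, 0.185 with the surrogate variable, 0.0406 with the length offset, 0.0472 without the Xist libraries and −0.30 to 0.0561 without single libraries. Rpl38 was at 0.12 without both pools, 0.0966 without the Xist libraries, 0.0594 with the length offset and −0.27 to 0.0787 without single libraries. Rpl7 was at 0.0246 with the surrogate variable, 0.00643 without the Xist libraries and −0.26 to 0.0180 without single libraries, and Rps25 at 0.0756 without both pools. Without single libraries Rpl27 ranged from −0.16 (sham replicate 4 left out) to 0.24 and Rpl5 from −0.11 (pMCAO replicate 5 left out) to 0.40. The causes were not tested. Depth limits the low members, since Rps4l rested on 7 to 119 counts in pMCAO and 107 to 315 in sham libraries.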
